A study of Mus musculus with 2 samples.

Results

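Potassium channel genes were compared between embryonic mouse ureters cultured with and without NOGGIN, leaving out 4 genes for subunits of the large-conductance calcium-activated (BK) channel. A gene was included when its probe's transcript accession maps to a symbol made of Kcn, further letters and a number. This rule gave 88 genes with 119 probes. Of these, 60 were expressed, meaning that the control or the NOGGIN culture, or both, gave a signal well above background on each array. They are 60 of 21316 genes tested. Only 15794 of those tested had a symbol, as every potassium channel gene does by the rule. The rest were kept under the name on the array, and shares over all genes include them. The other 28 of the 88 potassium channel genes are accounted for below.

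Potassium channels let potassium leave the cell down its gradient, which holds the resting membrane potential negative and ends each action potential. Voltage-gated (Kv), calcium-activated (SK, IK and BK), inwardly rectifying (Kir) and two-pore channels differ in what opens them, and cytosolic or membrane-spanning auxiliary subunits set how fast they open and close. In the ureter, peristaltic waves of smooth muscle contraction depend on such currents, with potassium channels opposing the calcium entry that drives contraction.

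The tissue was the ureter of wildtype NMRI mouse embryos of mixed sex at E12.5, a day in mid-gestation, before the ureter contracts. Explants grew on transwell membranes for 18 h. The treated ones received 10 µg/ml NOGGIN, an extracellular antagonist that captures bone morphogenetic proteins (BMPs) before they reach a receptor, and the controls received none. Each of 2 Agilent 2-colour arrays, replicates 1 and 2, compared 1 control with 1 NOGGIN culture. The control carried the red dye on replicate 1 and the green dye on replicate 2. Whole ureters were used, so fewer cells of a type and less RNA per cell cannot be told apart. The labels do not say whether a culture pooled several ureters or whether the replicates came from separate litters. The p-values therefore measure only the spread between these 2 arrays, which may be technical, and the number of arrays limits every value.

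The direction of all ratios below is not settled. They were oriented by the dyes in the labels, and 8 of 8 genes listed as BMP targets (Id1 to Id4, Smad6, Smad7, Smad9 and Msx2) were then higher in the channel labelled NOGGIN, the inhibitor of BMPs, with a median log2 ratio of 1.70. Their summed log2 signal was 16.75 and 16.01 in the control-labelled channels of replicates 1 and 2, against 18.29 and 18.10 in the NOGGIN-labelled channels. The authors' deposited table carries the opposite sign: it lists Id2 at a signed fold of -4.19 and -10.5 on the arrays. It is opposite on both arrays for 56 of the 60 expressed potassium channel genes and for 12 of the 12 past the threshold. Turning the sign exchanges higher and lower throughout and leaves every size as it is. Conditions are therefore named by their label, as the control-labelled and the NOGGIN-labelled channel.

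The sequences at the starts of the genes with the largest changes are shown first. Of 6 genes that differed 1.5-fold or more in the same direction on each array, 5 have an entry in the RefSeq promoter table (build GRCm38.p6). Kcnip4 has 2 starts in it, so there are 6 windows. Each runs from 250 bases before the start of the gene to 50 bases after it, in the direction of the gene. Capitals mark CAGAC, or GTCTG where it lies on the other strand, a short motif bound by SMAD proteins, the transcription factors that carry BMP and TGF-beta signals.
Kcnd3 promoter, chr3:105451640-105451939, plus strand: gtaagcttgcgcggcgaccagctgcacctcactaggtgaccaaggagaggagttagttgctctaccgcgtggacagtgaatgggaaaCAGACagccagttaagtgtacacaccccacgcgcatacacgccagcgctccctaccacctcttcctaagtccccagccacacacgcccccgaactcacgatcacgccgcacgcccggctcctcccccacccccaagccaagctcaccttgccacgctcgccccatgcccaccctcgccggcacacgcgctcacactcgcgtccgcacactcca
Kcne4 promoter, chr1:78816661-78816960, plus strand: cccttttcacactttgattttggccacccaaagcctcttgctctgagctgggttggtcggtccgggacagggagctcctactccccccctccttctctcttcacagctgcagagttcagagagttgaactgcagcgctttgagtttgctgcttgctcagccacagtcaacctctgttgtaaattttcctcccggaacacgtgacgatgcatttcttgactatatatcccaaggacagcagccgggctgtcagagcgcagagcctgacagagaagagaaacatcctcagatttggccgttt
Kcnip4 promoter, chr5:48599633-48599932, minus strand: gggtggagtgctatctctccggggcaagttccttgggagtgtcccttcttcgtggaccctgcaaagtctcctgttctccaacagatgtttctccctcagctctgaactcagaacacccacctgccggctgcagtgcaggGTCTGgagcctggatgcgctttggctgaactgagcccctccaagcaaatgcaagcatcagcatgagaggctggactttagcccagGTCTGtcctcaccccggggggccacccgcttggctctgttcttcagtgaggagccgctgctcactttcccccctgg
Kcnip4 promoter, chr5:49285610-49285909, minus strand: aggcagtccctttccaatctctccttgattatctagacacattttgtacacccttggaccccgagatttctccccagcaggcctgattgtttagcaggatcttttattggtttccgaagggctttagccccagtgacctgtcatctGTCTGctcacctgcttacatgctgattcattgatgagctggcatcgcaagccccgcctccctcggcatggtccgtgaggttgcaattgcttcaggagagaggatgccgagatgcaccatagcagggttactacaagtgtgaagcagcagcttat
Kcnj10 promoter, chr1:172340960-172341259, plus strand: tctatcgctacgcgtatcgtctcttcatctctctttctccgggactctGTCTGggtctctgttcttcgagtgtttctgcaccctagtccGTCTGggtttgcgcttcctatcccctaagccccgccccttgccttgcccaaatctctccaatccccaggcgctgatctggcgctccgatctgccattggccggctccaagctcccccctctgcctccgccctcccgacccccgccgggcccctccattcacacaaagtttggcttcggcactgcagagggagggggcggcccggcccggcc
Kcnn3 promoter, chr3:89519914-89520213, plus strand: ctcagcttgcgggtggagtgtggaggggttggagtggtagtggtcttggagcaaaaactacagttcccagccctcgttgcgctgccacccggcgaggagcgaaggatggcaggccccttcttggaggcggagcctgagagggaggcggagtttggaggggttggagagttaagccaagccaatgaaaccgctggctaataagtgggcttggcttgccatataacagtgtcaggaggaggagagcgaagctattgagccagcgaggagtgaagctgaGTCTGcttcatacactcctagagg
The motif was present in 5 of the 6 windows, all but that of Kcne4. Since CAGAC in either strand occurs in 49.6% of 32851 RefSeq windows of the same length, such a count describes these sequences and no more. GGCGCC, a palindrome that BMP-activated SMADs bind, was in 0 of the 6 windows and in 11.9% of all. Over the whole family, 63 of the 88 genes matched an entry and gave 88 windows, of which 51 (58.0%) held CAGAC and 14 (15.9%) held GGCGCC. These windows had a median GC content of 58.0%, against 52.7% over all windows, so the motif shares are not of equal base composition. Among 8 matched genes past the threshold, 9 of 14 windows held CAGAC and 0 held GGCGCC.

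Of the 60 expressed potassium channel genes, 12 (20%) passed an adjusted p of 0.05 in limma, against 7.99% of all genes tested. They were split evenly. Higher in the NOGGIN-labelled channel were Kcnip4, Kcnq3, Kcnc2, Kcna3, Kcnv1 and Kcnv2, 6 genes where 3.95% of all genes were higher. Lower were Kcnd3, Kcnn3, Kcnj10, Kcne4, Kcnab1 and Kcna1, 6 genes where 4.04% of all were lower. A difference of 1.5-fold or more in the same direction on each array was seen for 2 of the higher genes (Kcnip4, Kcnq3) and 4 of the lower ones (Kcnd3, Kcnn3, Kcnj10, Kcne4), against 2.9% of all genes in either direction. Ratios ran from -1.43 (Kcnd3) to 1.17 (Kcnip4) on the log2 scale, so no single direction holds for the family. Its median log2 ratio was -0.02 (0.01 on replicate 1 and -0.03 on replicate 2), against 0.00 for all genes, while its median absolute log2 ratio was 0.157 against 0.102. The sign was the same on both arrays for 49 of the 60, and for 14226 of 21316 over all genes tested. Kcnq3 and Kcnv2 counted as expressed only through the NOGGIN-labelled channels, where they are high. With all 4 channels required to be well above background, 56 potassium channel genes remained. Of these, 4 were higher and 6 lower by limma, against 1617 of 20398 genes in either direction.

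The signals of the conditions, set on a common scale over the 4 channels, did not overlap for 12 of 12 genes past the threshold and for 25 of 48 that did not pass, together 37 of 60. Over all genes tested the share without overlap was 51.2%. The order of 4 channels alone therefore says little about a gene, and the size of the ratio on each array is given with it.

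**Figure D1:**
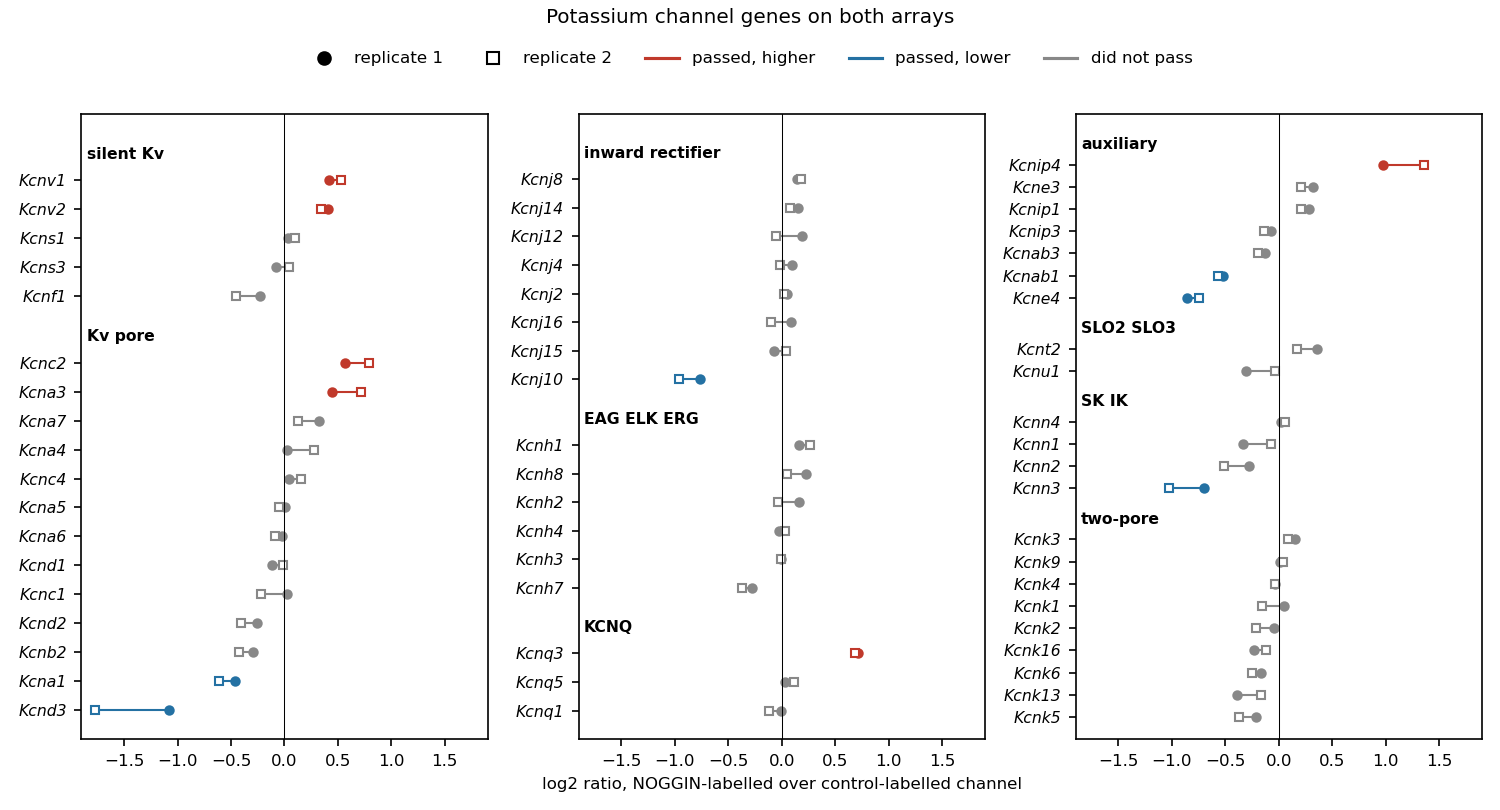
Log2 ratio of the NOGGIN-labelled over the control-labelled channel (x axis) for the expressed potassium channel genes described here, grouped by subfamily. Filled circles are replicate 1 and open squares replicate 2, coloured where the gene passed an adjusted p of 0.05. The genes past the threshold lie on both sides of 0, from Kcnd3 on the left to Kcnip4 on the right, while none of the two-pore or of the EAG, ELK and ERG genes is coloured.

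**Figure D2:**
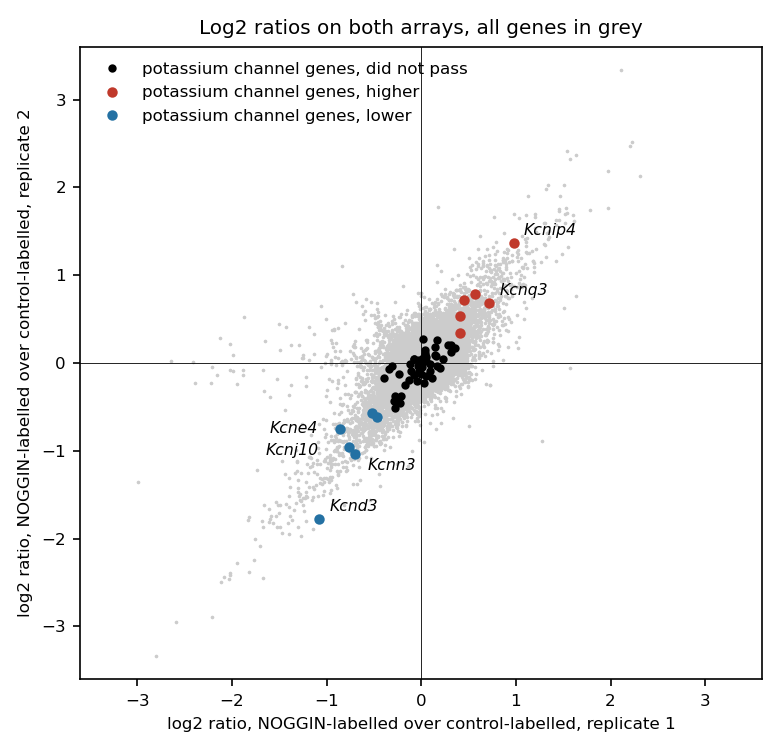
Log2 ratio on replicate 1 (x axis) against replicate 2 (y axis) for all 21316 genes (grey) and the 60 potassium channel genes (black, red where higher and blue where lower). The 6 labelled genes differed by at least 1.5-fold on both arrays, and Kcnd3 and Kcnip4 lie at the far ends of the family.

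The Kv genes that form a pore of their own were the largest subfamily, with 15 of 17 expressed, of which 2 were higher and 2 lower. Kcnd3, which encodes Kv4.3, a channel of the fast transient A-type current, changed most in the family. Its log2 signal was 12.32 and 12.74 in the control-labelled channels of replicates 1 and 2, and 11.24 and 10.96 in the NOGGIN-labelled ones. Both NOGGIN-labelled channels lay below both control-labelled ones, by more on replicate 2. The log2 ratios were -1.08 and -1.77, a mean of -1.43 ± 0.49 (SD, n = 2), or 2.69-fold lower, with a 95% interval of -1.86 to -0.99 and a limma adjusted p of 0.014. A second Kcnd3 probe, designed on another transcript record of the gene, was not well above background in any of the 4 channels, so only 1 of the 2 probes measured the gene.

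The other Kv4 genes moved less. Kcnd2, which encodes Kv4.2, gave 12.39 and 12.35 in the control-labelled channels and 12.13 and 11.95 in the NOGGIN-labelled ones. Its mean log2 ratio of -0.33 ± 0.10 (SD, n = 2) had a 95% interval of -0.53 to -0.13 and did not pass (limma adjusted p = 0.076), though it did with an intensity trend in the test (limma adjusted p = 0.047). Kcnd1 was at -0.06. The difference between Kcnd3 and Kcnd2 was not tested.

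Kv4 channels carry small calcium-binding proteins, the KChIPs, on their cytosolic side, and 1 KChIP gene had the next largest change, in the other direction. Kcnip4, which encodes KChIP4, had log2 signals of 8.56 and 8.31 in the control-labelled channels and 9.54 and 9.67 in the NOGGIN-labelled ones. Both NOGGIN-labelled channels were the brighter by about a log2 unit or more. The mean log2 ratio was 1.17 ± 0.27 (SD, n = 2), or 2.25-fold higher, with a 95% interval of 0.88 to 1.45 and a limma adjusted p of 0.0082. A second Kcnip4 probe gave 0.88. The other expressed KChIP genes did not pass: Kcnip1 had a log2 ratio of 0.25 ± 0.05 (SD, n = 2) and Kcnip3, whose protein is also known as the transcriptional repressor DREAM, had -0.11 ± 0.05 (SD, n = 2). The 2 kept probes of Kcnip3 disagreed in sign, at -0.11 and 0.13. Dpp6 and Dpp10, which encode membrane-spanning partners of Kv4 channels, were at log2 ratios of -0.02 and -0.06 and did not pass.

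**Figure D3:**
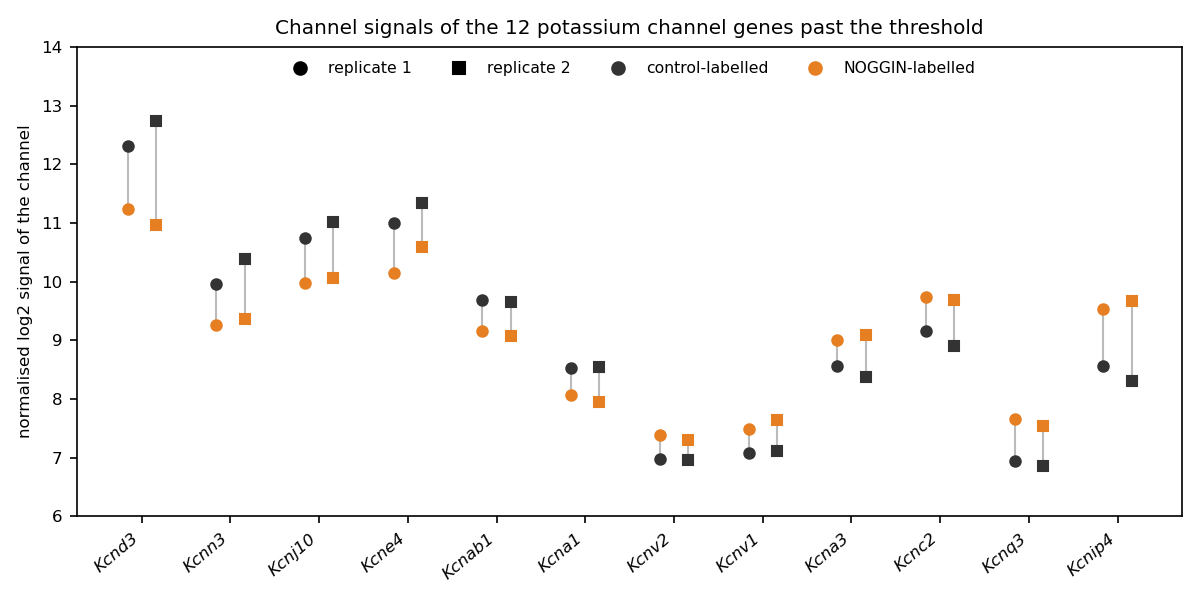
Normalised log2 signal (y axis) of the 12 potassium channel genes past the threshold (x axis) in each of the 4 channels. Circles are replicate 1 and squares replicate 2, dark for the control-labelled and orange for the NOGGIN-labelled channel, and a line joins the channels of 1 array. The colours do not overlap for any of the 12 genes. Heights of different genes come from different probes and are not comparable.

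Among the Kv1 genes, 1 was lower and 1 was higher. Kcna1, which encodes the low-threshold delayed rectifier Kv1.1, had log2 signals of 8.52 and 8.55 in the control-labelled channels and 8.06 and 7.94 in the NOGGIN-labelled ones, which lay below on both arrays. This gave a mean log2 ratio of -0.54 ± 0.10 (SD, n = 2; limma adjusted p = 0.022). Kcna3, which encodes Kv1.3, a channel best known from lymphocytes, had 8.55 and 8.37 in the control-labelled channels against 9.003 and 9.09 in the NOGGIN-labelled ones. Here the NOGGIN-labelled channels lay above on both arrays, by a mean log2 ratio of 0.58 ± 0.19 (SD, n = 2; limma adjusted p = 0.028). The remaining expressed Kv1 genes did not pass. Kcna5, which encodes Kv1.5, a channel of vascular smooth muscle, was at -0.02 ± 0.04 (SD, n = 2) with a 95% interval of -0.21 to 0.17. A second kept Kcna5 probe gave 0.07 and -0.36 on replicates 1 and 2, a mean of -0.14. Kcna4, Kcna6 and Kcna7 were at 0.15, -0.06 and 0.22, and a second Kcna7 probe was at -0.04.

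Kcnab1, which encodes a cytosolic beta subunit of Kv1 channels, was lower. Its log2 signal was 9.69 and 9.64 in the control-labelled channels and 9.16 and 9.07 in the NOGGIN-labelled ones, a difference of nearly the same size on both arrays. It amounted to a mean log2 ratio of -0.55 ± 0.03 (SD, n = 2; limma adjusted p = 0.018). The related Kcnab3 did not pass, at -0.16 ± 0.05 (SD, n = 2), and Kcnab2 was not expressed by the rule.

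In the Kv3 group, whose channels open and close fast enough for high firing rates, Kcnc2 (Kv3.2) was higher. Its log2 signal was 9.16 and 8.89 in the control-labelled channels and 9.73 and 9.68 in the NOGGIN-labelled ones, with no overlap. The mean log2 ratio was 0.68 ± 0.16 (SD, n = 2; limma adjusted p = 0.017). Kcnc1 and Kcnc4 did not pass, at log2 ratios of -0.10 and 0.10. Kcnb2, which encodes the delayed rectifier Kv2.2, was at -0.36 ± 0.10 (SD, n = 2; limma adjusted p = 0.060), and only 1 of its 2 NOGGIN-labelled channels was well above background. It passed as lower under 6 alternatives at the same threshold, among them a normexp offset of 0 (-0.57, limma adjusted p = 0.025) and Agilent's processed signals (-0.89, limma adjusted p = 0.015).

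Silent Kv subunits form no channel alone and alter Kv2 channels when they join them. Of 10 such genes 5 were expressed, and 2 were higher. Kcnv1 (Kv8.1) had log2 signals of 7.07 and 7.12 in the control-labelled channels and 7.48 and 7.65 in the NOGGIN-labelled ones, a mean log2 ratio of 0.47 ± 0.08 (SD, n = 2; limma adjusted p = 0.029). Kcnv2 (Kv8.2) had 6.98 and 6.96 against 7.38 and 7.30, a mean of 0.37 ± 0.05 (SD, n = 2; limma adjusted p = 0.047). For both, each NOGGIN-labelled channel was above each control-labelled one, but the signals were dim, and Kcnv2 was well above background in the control-labelled channel of 1 array only. With a normexp offset of 0 the ratios were 0.70 for Kcnv1 and 0.59 for Kcnv2, and with Agilent's processed signals 0.94 and 0.86. Kcnf1, at -0.34 ± 0.16 (SD, n = 2; limma adjusted p = 0.092), did not pass, but did so with Agilent's processed signals (-0.70, limma adjusted p = 0.0498). Neither did Kcns3, at -0.02 ± 0.09 (SD, n = 2), or Kcns1, at 0.07.

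KCNQ channels give slow, non-inactivating currents that hold back repeated firing in neurons and relax several smooth muscles. Of 5 genes 4 were expressed, and Kcnq3, a subunit of the neuronal M current, was higher. Its log2 signal was 6.94 and 6.86 in the control-labelled channels and 7.65 and 7.54 in the NOGGIN-labelled ones. The mean log2 ratio was 0.70 ± 0.03 (SD, n = 2), or 1.62-fold, with a limma adjusted p of 0.0098. The control-labelled channel of replicate 1 was not well above background, and the ratio was 1.07 with a normexp offset of 0 and 1.48 with Agilent's processed signals. In the authors' deposited table, with its sign turned, it was 1.56. Kcnq1, whose channel serves heart and epithelia, was at -0.06 ± 0.08 (SD, n = 2), and Kcnq5 was at 0.08 ± 0.06 (SD, n = 2). Neither passed.

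Kcne genes encode small membrane-spanning subunits that modify KCNQ and Kv channels. Kcne4, whose protein inhibits the channel of Kcnq1 and some Kv1 channels, was lower. Signals on the log2 scale were 11.00 and 11.34 in the control-labelled channels and 10.14 and 10.59 in the NOGGIN-labelled ones. The NOGGIN-labelled channel was the dimmer on both arrays, by -0.86 and -0.75 on the log2 scale. The mean of -0.80 ± 0.08 (SD, n = 2) corresponds to 1.74-fold lower, with a limma adjusted p of 0.0080, and a second probe gave -0.71. Kcne3, which keeps KCNQ1 channels open in epithelia, was at 0.26 ± 0.08 (SD, n = 2; limma adjusted p = 0.12) and did not pass. Of the 12 auxiliary genes in all (Kcnab, Kcne, Kcnip and Kcnmb3), 7 were expressed, with 1 higher and 2 lower.

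Calcium-activated channels of small and intermediate conductance open on a rise of cytosolic calcium and were expressed from all 4 genes. Kcnn3 (SK3) was lower. The log2 signal was 9.96 and 10.39 in the control-labelled channels and 9.26 and 9.36 in the NOGGIN-labelled ones, which lay below on both arrays. The mean log2 ratio was -0.86 ± 0.24 (SD, n = 2), or 1.82-fold lower, with a limma adjusted p of 0.014, and a second probe gave -0.62. Kcnn2 (SK2) gave 10.36 and 10.35 against 10.08 and 9.84. At -0.40 ± 0.16 (SD, n = 2) it did not pass (limma adjusted p = 0.063), and it was the only one of the 48 genes that did not pass whose 95% interval, -0.62 to -0.17, reached beyond a 1.5-fold change. Kcnn1 was at -0.20 ± 0.19 (SD, n = 2; -0.66 with Agilent's processed signals), with its NOGGIN-labelled channel well above background on 1 array only, and Kcnn4, the intermediate-conductance gene, was at 0.04 ± 0.03 (SD, n = 2). Kcnt2, whose channel opens on sodium, and Kcnu1, best known from sperm, had log2 ratios of 0.26 ± 0.13 and -0.17 ± 0.20 (SD, n = 2) and did not pass.

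Inward rectifiers pass potassium best near the resting potential and so stabilise it. Of 15 genes 8 were expressed and 1 was lower, Kcnj10, which encodes Kir4.1, a channel of glia and of renal tubules. Its control-labelled channels had log2 signals of 10.74 and 11.01 and its NOGGIN-labelled ones 9.97 and 10.05, without overlap. The mean log2 ratio was -0.86 ± 0.13 (SD, n = 2), or 1.82-fold lower, with a limma adjusted p of 0.0083. Kir4.1 can assemble with Kir5.1, the product of Kcnj16. Kcnj16 gave 12.62 and 12.82 in the control-labelled channels and 12.71 and 12.72 in the NOGGIN-labelled ones, which overlapped. Its mean log2 ratio was -0.003 ± 0.13 (SD, n = 2), with a 95% interval of -0.21 to 0.21. The other 6 expressed inward rectifiers lay between -0.02 and 0.16. Among them, Kcnj8, the pore of the smooth muscle channel that ATP closes, was at 0.16 ± 0.02 (SD, n = 2) and did not pass (limma adjusted p = 0.26), while its partner subunit gene Abcc9 was higher, at 0.43 ± 0.06 (SD, n = 2; limma adjusted p = 0.035). Kcnj15 was at -0.02 ± 0.08 (SD, n = 2).

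Two-pore channels carry background currents at all voltages, and 9 of their 14 genes were expressed with 0 past the threshold by limma. Their log2 ratios lay between -0.29 and 0.12. Kcnk5, which encodes the alkaline-activated TASK-2, was the lowest, at -0.29 ± 0.11 (SD, n = 2; limma adjusted p = 0.105). Kcnk2, the mechanically gated TREK-1, was at -0.13 ± 0.12 (SD, n = 2), Kcnk1 (TWIK-1) at -0.05 ± 0.15, and Kcnk3 (acid-sensitive TASK-1) at 0.12 ± 0.04. For these 3 genes the 95% intervals ran from -0.33 to 0.08, from -0.27 to 0.17 and from -0.07 to 0.30. Among the EAG, ELK and ERG genes, 6 of 8 were expressed and 0 passed by limma, with log2 ratios between -0.33 and 0.22. Kcnh1 (EAG1) was at 0.22 ± 0.07 (SD, n = 2; limma adjusted p = 0.17), Kcnh2 (ERG1, a repolarising channel of the heart) at 0.06 ± 0.14, Kcnh4 at 0.00 ± 0.04 and Kcnh7 at -0.33 ± 0.07 (limma adjusted p = 0.071). At an unadjusted limma p of 0.05, 13 of all 48 genes that did not pass would have been taken, 5 higher and 8 lower. With those that passed, this made 25 of 60, against 4955 of 21316 over all genes tested. The 95% interval lay inside a 1.5-fold change in either direction for 47 of the 48. That count depends on the processing. With Agilent's processed signals, the ratios of Kcnb2 and Kcnf1 were themselves -0.89 and -0.70, beyond 1.5-fold. The ratio of Kcnn1 with those signals, given above, was also beyond 1.5-fold. Intervals under that processing are not given here.

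The 28 genes that were not expressed included Kcna2, Kcna10, Kcnab2, Kcne1, Kcne2, Kcng1 to Kcng4, Kcnh5, Kcnh6, Kcnip2, Kcnj1, Kcnj3, Kcnj5, Kcnj6, Kcnj9, Kcnj11, Kcnj13, Kcnk7, Kcnk10, Kcnk12, Kcnk15, Kcnk18, Kcnmb3, Kcns2 and Kcnt1. Of these, 16 were not well above background in any of the 4 channels, 6 in 1 channel only and 6 in 2. Several sit next to genes that were measured, with no protein-coding gene between them in GRCm38.p6. Kcnj10 on chromosome 1 adjoins Kcnj9, and Kcna3 on chromosome 3 adjoins Kcna2, followed by Kcna10. On chromosome 6, Kcna1 (log2 ratio -0.54) lies between Kcna5 (-0.02) and Kcna6 (-0.06), and only Kcna1 passed the test. The differences between these neighbours were not tested.

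Partners outside the naming rule were taken as a list of 19 genes, and 15 were expressed, with 2 higher and 3 lower (median log2 ratio -0.06, 0.00 over all genes). Besides Abcc9, the higher gene was Lgi1, at 0.51 (1.04 with Agilent's processed signals), which encodes a secreted protein bound to Kv1 complexes. The lower ones were Lrrc55 (-2.11), a gamma subunit of BK channels, Kcnmb1 (-0.72), their smooth muscle beta subunit, and Kcnrg (-0.40), a regulator of Kv assembly. The Kcnrg call was lost with the mean of its probes (-0.28, limma adjusted p = 0.095). Of 18 voltage-gated calcium channel genes 13 were expressed, 1 higher and 3 lower (median -0.15). Cacna1c, the pore of the L-type channel of smooth muscle, was at -0.64, the T-type gene Cacna1g at -0.58 and the accessory Cacna2d3 at -0.41, while Cacna2d1 was at 0.48. The Cacna2d1 and Cacna2d3 calls were lost with Agilent's processed signals (limma adjusted p = 0.067 and 0.071). Of 15 genes of the sodium pump and of potassium-coupled cotransport 14 were expressed, 2 higher and 1 lower (median 0.01). Atp1b2, a beta subunit of the pump, was higher at 0.70, and Fxyd2, its gamma subunit, was lower at -0.78.

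Cell type markers moved along the same comparison. Of 6 smooth muscle markers (Acta2, Tagln, Cnn1, Myh11, Actg2 and Des), 5 were lower, all but Des, with a median log2 ratio of -0.95, and their summed log2 signal was 18.85 and 18.82 in the control-labelled channels against 17.70 and 17.78 in the NOGGIN-labelled ones. Of 8 neuron and neural crest markers 2 were higher, Stmn2 (0.70) and Prph (0.67), and the summed signal was 16.39 and 16.46 against 16.82 and 16.61. Of 6 ureteric mesenchyme markers 4 were higher and Aldh1a2 was lower, and the sums were 17.43 and 17.48 against 17.66 and 17.53. Of 8 epithelial markers 2 were higher (Upk2 and Foxa1; sums 17.42 and 17.55 against 17.62 and 17.65). By limma, 0 of 6 endothelial and 0 of 6 macrophage markers passed, with 2 of each at an unadjusted p under 0.05. Their sums were 14.81 and 14.97 against 14.97 and 15.21, and 14.44 and 14.15 against 14.12 and 14.17. Of 5 mural cell markers 1 was higher, Abcc9, with sums of 15.58 and 15.65 against 15.59 and 15.59. Every listed marker passed the filter on dim probes, and none was at 0. The lower potassium channel genes lay on the side of the smooth muscle markers and the higher ones on that of Stmn2 and Prph, and the part of cell composition in these results was not tested.

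All 12 calls were lost when each array was centred on its median in place of loess, the step that evens out dye bias along the signal range. Then 0 of all 21316 genes passed in limma (3568 had an unadjusted p under 0.05, 21 of them potassium channel genes), and adjusted p for the 12 genes ran from 0.091 (Kcne4) to 0.173 (Kcnv2). Their ratios kept their signs there, and 2 higher and 4 lower genes still changed by at least 1.5-fold on both arrays.

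**Figure D4:**
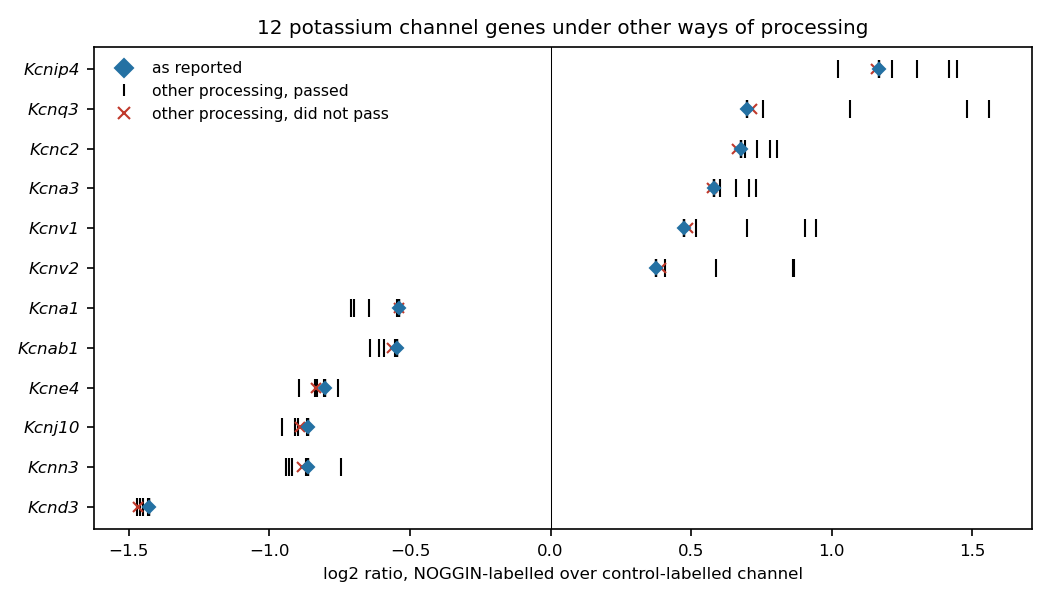
Log2 ratio (x axis) of the 12 potassium channel genes past the threshold, as reported (blue diamonds) and under other ways of processing (black ticks where the gene passed, red crosses where it did not). Every mark keeps its side of 0. The ratios of the dim genes Kcnq3, Kcnv1 and Kcnv2 spread to the right, up to 1.48, 0.94 and 0.86 with Agilent's processed signals and, for Kcnq3, 1.56 in the authors' deposited table with its sign turned.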

How the data were processed

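Each of 2 Agilent 2-colour arrays carried 1 control and 1 NOGGIN culture. Per the labels' protocols, the cRNA came from 200 ng of total RNA after 1 round of amplification, with the Alexa Fluor dyes exchanged between the arrays. Per the file headers both lie on 1 slide and were scanned together. The deposited files hold linear intensities of each spot. The submitters' processing notes name Agilent Feature Extraction 10.7.3.1 as the reader. A log10 ratio of the channels, per the file headers computed by that software, was checked and not used. The authors' deposited table holds a signed fold change per probe and array. No source used here gives its normalisation. Over 21316 genes, its log2 values correlated with the label-oriented ratios at r = -0.956 on both arrays, and its sign is opposite. Its folds of Kcnq3, Kcnv1 and Kcnv2 are larger than those computed here, and which direction is right stays unknown. Each array's deposited intensities came from 39429 probes. Between 67.3% and 74.3% of gene spots were well above background, 0 were saturated, and 3.69% were outliers and left out.

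The background was corrected with normexp (offset 50), each array was normalised with loess, spots were averaged, and the brightest kept probe stood for a gene. For a probe to be kept, a share above 0.5 of its spots had to be well above background in the control-labelled, or in the NOGGIN-labelled, channels of each array. For 21 probes all spots of an array were outliers, and they were left out. Signals of channels were scaled with Aquantile. Log2 ratios were tested against 0 (two-sided) with limma 3.58.1 (lmFit, eBayes; R 4.3.3), with Benjamini-Hochberg adjustment over all genes, 1 residual and 4.13 prior degrees of freedom. After the fit, the test was also run on simulated ratios whose spread was drawn from that fit. Probes were named through a RefSeq table of GRCm38.p6, and 28328 of 39429 had a symbol.

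Named genes are all that passed or changed at least 1.5-fold on both arrays, the one with the brightest probe in each subfamily, and 23 fixed by name. Others named are given by value only. Some genes that the rule names are not reported by name here, though the counts include them. The genes, the lists of partners, calcium channels, pump and cotransport genes, markers and BMP targets, and the tests were chosen with earlier results of these data known. Alternatives were other background corrections, normalisations, filters, probe summaries, forms of the test and thresholds, and the deposited table.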

Additional observations from a re-analysis of the deposited data

How the results depend on the processing

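Under 10 of the alternatives (background correction with offset 0 or none, Agilent's processed signals, no filter on dim probes or one on all 4 channels, mean or every kept probe, the deposited table with its sign turned, and eBayes with trend or robust), each of the 12 genes past the threshold stayed past it wherever it was tested, with adjusted p up to 0.048. Kcnq3 and Kcnv2 could not be tested with the filter on all 4 channels. Median centring without loess left 0 higher and 0 lower potassium channel genes, and the cause was not tested. The rule of 1.5-fold on both arrays, with no model, left 2 higher and 4 lower, and an adjusted p of 0.10 gave 6 higher and 11 lower, the added ones being Kcnb2, Kcnd2, Kcnf1, Kcnh7 and Kcnn2. At 0.05, Kcnb2 also passed under 6 alternatives, Kcnd2 with eBayes with trend and Kcnf1 with Agilent's processed signals. Over all genes the count past the threshold was 1704. It was 0 with median centring, 618 by the 1.5-fold rule, 2698 at 0.10 and between 1424 and 2002 otherwise. The median log2 ratio of the expressed potassium channel genes ran from -0.034 to 0.0065 with each array left out in turn, so its sign is not fixed. One array alone leaves no residual degrees of freedom and gives no test. No alternative reversed the sign of a gene past the threshold. Each ratio sets a NOGGIN culture against the control culture on the same array, so the test is already paired by array. No further pairing was possible, because there is no second group with the same numbers. Dim signals limit Kcnq3, Kcnv1, Kcnv2, Kcnb2, Kcnf1 and Kcnn1, whose ratios were over 1.5 times larger with Agilent's processed signals.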
